A study of Homo sapiens with 15 samples.

Results

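The genes described here are IL8 and the 5 chemokine genes CXCL1, CXCL2, CXCL3, CXCL5 and CXCL6, which are 6 of the 23368 genes in the count table. IL8 is the table's symbol for the gene now called CXCL8. The 6 were chosen by name as a family, with their counts and dose responses in these 15 libraries already known, so their own levels and slopes are given as a description without a test. Of the 6, 4 (IL8, CXCL1, CXCL2 and CXCL3) averaged 10 or more normalized counts in each of the clones, the limit for entering the fit. CXCL5 and CXCL6 did not.

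The RNA came from 3 clones of brain-metastatic human breast cancer cells that carry FLAG-tagged RBM47, an RNA-binding protein, under a doxycycline-inducible promoter in the retroviral vector pRetroX-Tight-Pur. WT6 and WT10 carry wild type RBM47, and MUT3 carries RBM47-I281fs, a frameshift form. The study reports little protein of this form despite ample mRNA, with none seen on Western blots of induced cells that were not single-cell clones. Each clone grew from a single cell and received doxycycline at 0, 1, 2.5, 5 or 25 ng/ml. Every combination of clone and dose was sequenced as 1 library, so that all 15 groups hold 1 sample. The labels name MDA231 as the line of every clone, whereas the study's methods derive WT6 from CN34-BrM2 and the others from 231-BrM2. The mutant is represented by 1 clone, so the mutation and the clone cannot be told apart.

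The 6 proteins are CXC chemokines with the Glu-Leu-Arg motif ahead of the first cysteines. They bind CXCR2, and IL8 and CXCL6 also bind CXCR1, on neutrophils, which they draw out of the blood. Tumour cells, fibroblasts and endothelium secrete them after inflammatory signals such as interleukin-1, mainly through NF-κB at the promoter, and their mRNAs are short-lived because AU-rich elements in the 3′UTR recruit decay factors. In breast cancer they are known for shaping the leukocytes and vessels around a tumour.

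All 6 genes lie in the chemokine cluster of chromosome 4, within 358.7 kb between positions 74606236 and 74964913 (hg19). IL8 occupies chr4:74606236-74609433 on the plus strand, CXCL6 chr4:74702357-74714781 and CXCL1 chr4:74735110-74737025 on the same strand. CXCL5 (chr4:74861359-74864394), CXCL3 (chr4:74902306-74904524) and CXCL2 (chr4:74962757-74964913) are on the minus strand. None of IL8, CXCL1, CXCL2 and CXCL3 overlaps another annotated gene, whereas CXCL6 overlaps the pseudogene PPBPP1 and CXCL5 a lncRNA on the opposite strand.

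The promoters are shown because one 9-letter NF-κB site stands at nearly the same place in all 6. The letters GGAATTTCC (either strand) occur within the 250 bases before the start in 145 of 35116 RefSeq promoters, 0.413% of them, and once in each of the 6 genes. This motif was picked after these promoters had been read. The following 69-base windows are parts of these stretches that end before the transcription start (RefSeq, GRCh38.p14, each on its gene's strand), with the site in capitals.
IL8, chr4:73740448-73740516: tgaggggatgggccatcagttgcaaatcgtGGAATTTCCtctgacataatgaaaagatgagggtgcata
CXCL1, chr4:73869285-73869353: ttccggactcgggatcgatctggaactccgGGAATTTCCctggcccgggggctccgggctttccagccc
CXCL2, chr4:74099234-74099302: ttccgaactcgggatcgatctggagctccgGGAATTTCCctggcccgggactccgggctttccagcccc
CXCL3, chr4:74038729-74038797: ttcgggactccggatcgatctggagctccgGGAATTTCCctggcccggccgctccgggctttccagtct
CXCL5, chr4:73998729-73998797: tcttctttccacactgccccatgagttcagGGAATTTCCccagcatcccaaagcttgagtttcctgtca
CXCL6, chr4:73836559-73836627: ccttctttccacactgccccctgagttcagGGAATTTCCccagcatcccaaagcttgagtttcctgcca

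The site begins 91 bases before the start in IL8, 90 in CXCL5, 89 in CXCL6, 78 in CXCL1 and CXCL3, and 77 in CXCL2. The windows fall into 3 kinds. Counted without gaps over all 69 bases, the 9 of the site included, CXCL1 and CXCL3 share 62 and CXCL5 and CXCL6 share 66. IL8 shares at most 26 with any of the others. In the whole 250 bases, the AP-1 letters TGANTCA, present in 6.57% of all promoters, were found among the 6 genes in IL8 alone, 137 bases before the start. The GC box letters GGGCGG, present in 42.6% of promoters, occurred once in CXCL1 and CXCL3 and 2 times in CXCL6. CXCL5 and CXCL6, the genes with almost no reads, thus hold the same 9 letters as the 4 genes with reads.

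The 3′UTRs are shown for their AU-rich stretches, counted as the pentamer ATTTA. For the 4 genes with reads, the following 30-base windows (hg19, each on its gene's strand) hold the densest run, with each pentamer in capitals.
IL8, chr4:74608828-74608857: cctATTTAttATTTAtgtATTTATTTAagc
CXCL1, chr4:74736391-74736420: agtcttctATTTATTTATTTAttcattagt
CXCL2, chr4:74963302-74963331: ttctATTTATTTATTTATTTATTTAtttgt
CXCL3, chr4:74902798-74902827: ttctacttATTTAtgtATTTAtttttgaaa

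CXCL2 holds 5 overlapping pentamers in its window, and 0 of 944 3′UTRs within 10% of its length hold as many in 30 bases. Its 3′UTR has 10 pentamers in all, IL8's 9, CXCL3's 7 and CXCL1's 6. IL8's window, with 4, was matched by 0.53% of 1125 like-length 3′UTRs, and CXCL1's, with 3, by 1.28% of 1016. CXCL3's, with 2, was matched by 11.21%. Every one of the 6 mRNAs carried the pentamer, including CXCL5 (11) and CXCL6 (6), so the total did not separate the genes with reads from those without. Per kb of 3′UTR there were 7.19 in IL8, 7.77 in CXCL1, 13.97 in CXCL2 and 10.4 in CXCL3. CXCL5 had 5.51 per kb and CXCL6 5.36. The densest 30 bases of CXCL5 held 2, as in CXCL3, and those of CXCL6 held 1. Any link to the read counts was not tested.

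Near-identical copies could share reads, because CXCL1 and CXCL2 are 91.3% identical over 1081 aligned transcript bases and CXCL2 and CXCL3 85.1% over 1014. Even so, few 75-base stretches, the read length, were shared exactly with another gene. The share was 0.3% for CXCL1, 2.5% for CXCL2, 2.3% for CXCL3 and 0 for IL8.

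The 15 libraries held between 14955172 and 44771871 reads on genes, with a median of 18152381. A normalized count is the reads of a gene divided by the library's DESeq size factor. The markers of the cell lines were present in every library (VIM 50755 to 104639, CD44 7100 to 22521 normalized counts). Markers of leukocytes summed to between 0 and 8.72 over 6 genes, and CDH5, which marks endothelium, had at most 1 read, while COL1A1 lay between 178 and 493. The induced gene rose with dose in each clone, with 1 exception. RBM47 went from 258 normalized counts without doxycycline to 3137, 8094, 3966 and 10425 in WT6, from 168 to 827, 2822, 8134 and 19877 in WT10, and from 73.8 to 92.1, 336, 949 and 22084 in MUT3. WT6 at 5 ng/ml thus had less RBM47 than at 2.5 ng/ml. Reads of the endogenous and of the introduced RBM47 were not separated.

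IL8, the classical neutrophil chemokine, climbed with the dose in both wild type clones and had the highest counts of the family in WT10. In WT6 its normalized counts were 142 without doxycycline and 168, 267, 534 and 1354 at 1, 2.5, 5 and 25 ng/ml. In WT10 they were 266, 389, 655, 1706 and 4198 in the same order. In MUT3 they were 294, 406, 303, 377 and 420. Each added dose was higher than the last in both wild type clones, whereas the 5 MUT3 libraries stayed between 294 and 420. In bulk libraries, more cells that express a gene and more RNA per cell cannot be told apart.

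At 25 ng/ml, IL8 was 9.50-fold its untreated level in WT6 (95% exact counting interval 7.92 to 11.5), 15.8-fold in WT10 (13.9 to 18.0) and 1.43-fold in MUT3 (1.21 to 1.69). These intervals cover counting error only, since PCR reads are not independent molecules and there is no second library. The lowest dose already gave 1.46-fold in WT10 (1.24 to 1.72) and 1.38-fold in MUT3 (1.17 to 1.64), but 1.18-fold in WT6 (0.93 to 1.49), which was not distinguishable from no change at this depth. The step from 2.5 to 5 ng/ml was 2.60-fold in WT10 and the one from 5 to 25 ng/ml 2.46-fold.

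**Figure D1:**
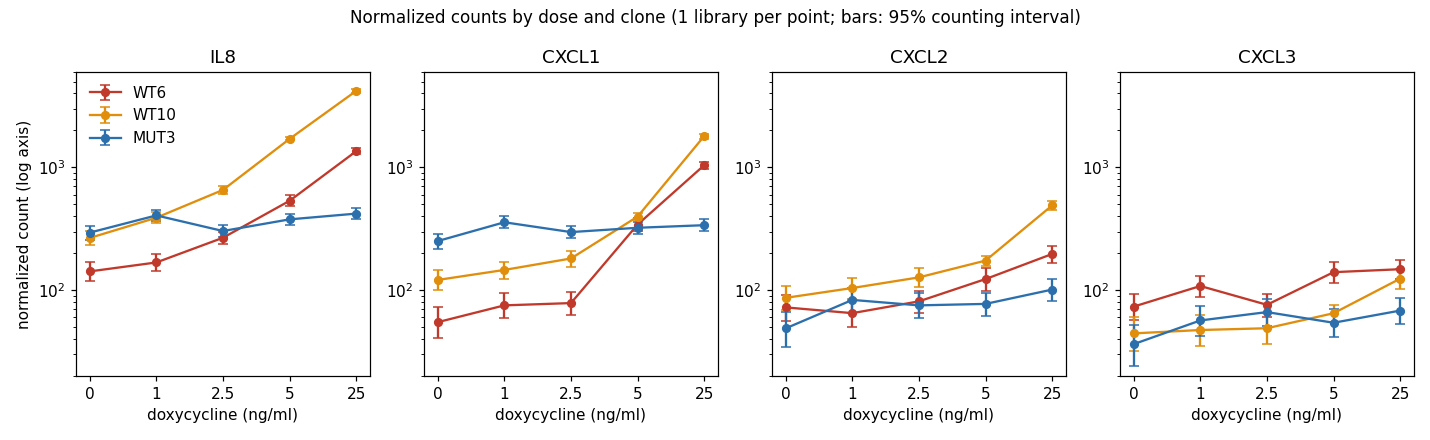
Normalized counts (log axis) of IL8, CXCL1, CXCL2 and CXCL3 against doxycycline dose in ng/ml, doses evenly spaced, 1 point per library and 1 line per clone, with 95% counting intervals as bars. IL8 and CXCL1 climb in WT6 and WT10 to between 1041 and 4198 at 25 ng/ml, while MUT3 ends at 420 and 338.

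CXCL1, which encodes the GROα chemokine, had the highest ratio of 25 ng/ml to untreated among the 4 genes with reads in WT6. Its normalized counts there were 54.8, 75.1, 78.4, 342 and 1041 from 0 to 25 ng/ml. In WT10 they were 121, 146, 181, 397 and 1798, and in MUT3 251, 357, 297, 322 and 338. Most of the rise in the wild type clones lay above 2.5 ng/ml, and the first 3 libraries of WT6 lay between 54.8 and 78.4.

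The ratio of CXCL1 at 25 ng/ml to untreated was 19.0 in WT6 (14.3 to 25.8), 14.8 in WT10 (12.3 to 18.1) and 1.35 in MUT3 (1.13 to 1.61). In WT6 the step from 2.5 to 5 ng/ml was 4.36-fold (3.42 to 5.60), at the dose where RBM47 stood at 0.490 times its level at 2.5 ng/ml. The same step in WT6 was 2.0-fold for IL8 (1.72 to 2.33), 1.51-fold for CXCL2 (1.12 to 2.04) and 1.85-fold for CXCL3 (1.38 to 2.48). Short mRNAs in general were higher in that library. The median log2 change from untreated of transcripts up to 1778 bases, the class of all 4 genes, was -0.02 at 2.5 and 0.60 at 5 ng/ml in WT6, beside log2 steps of 1.00 for IL8, 2.12 for CXCL1, 0.60 for CXCL2 and 0.89 for CXCL3. In WT10, where RBM47 rose at every dose, the widest step of CXCL1 was the last, 4.53-fold (4.19 to 4.90).

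CXCL2, or GROβ, moved less. It read 72.3, 64.9, 81.0, 123 and 197 normalized counts in WT6, 86.5, 104, 127, 174 and 490 in WT10, and 48.8, 83.2, 75.1, 77.2 and 101 in MUT3. At 25 ng/ml it was 2.72-fold untreated in WT6 (2.03 to 3.68), 5.66-fold in WT10 (4.46 to 7.27) and 2.06-fold in MUT3 (1.41 to 3.07). The untreated MUT3 library was its lowest of all 15.

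CXCL3, or GROγ, was the weakest per kb of exon of the 4 genes with reads in WT10 and MUT3. It read 73.4, 108, 75.9, 140 and 148 normalized counts in WT6, 44.4, 47.3, 48.9, 64.8 and 124 in WT10, and 36.3, 56.6, 66.2, 54.2 and 68.1 in MUT3. The ratio at 25 ng/ml was 2.02 in WT6 (1.48 to 2.77), 2.80 in WT10 (1.95 to 4.10) and 1.88 in MUT3 (1.19 to 3.02). These 3 intervals overlap, unlike those of IL8 and CXCL1, whose wild type and mutant intervals are apart. In WT6 the level at 2.5 ng/ml was back near the untreated one, and the last step was 1.06-fold (0.805 to 1.39).

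CXCL5 and CXCL6, which encode ENA-78 and GCP-2, were close to silent. CXCL5 had 1 read in each of 4 libraries and 0 in the other 11, and CXCL6 had 1 read in a single library. A library with 0 reads allows up to 3, which is between 1.19 and 4.09 normalized counts depending on depth. No dose or clone brought either gene above that limit. The other chemokine genes of the cluster behaved likewise, with at most 7 reads of PF4, 5 of PPBP and 1 of PF4V1 in any library.

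Across all doses, the response was measured as a slope, the change in log2(normalized count + 1) per unit of log2(dose + 1), fitted with limma in all 15 libraries together with a separate line for each clone. A gene is called where its Benjamini-Hochberg adjusted p over the 12644 tested genes is under 0.05. In WT6, 29.2% of tested genes were called rising and 28.3% falling, in WT10 10.2% and 9.83%, and in MUT3 0%. All 4 tested chemokine genes were called rising in WT6 and in WT10 and 0 in MUT3. Because the family was named with these slopes known, nothing is read from the counts. In MUT3, 295 genes had an unadjusted p under 0.05 and edgeR on the recovered reads called 1 gene.

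CXCL1 had the steepest slope of the family, 1.01 ± 0.10 (SE) in WT6 and 0.94 ± 0.09 in WT10. IL8 followed with 0.75 ± 0.07 and 0.89 ± 0.06. CXCL2 reached 0.36 ± 0.06 and 0.58 ± 0.05, and CXCL3 0.21 ± 0.06 and 0.35 ± 0.07. Among all rising genes CXCL1 was 2nd in WT6 and 4th in WT10, and IL8 16th and 5th, whereas CXCL2 was 347th and 24th and CXCL3 1635th and 133rd. The order CXCL1, IL8, CXCL2, CXCL3 was the same in both wild type clones, although CXCL1 and IL8 in WT10 differed by less than their standard errors.

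MUT3 slopes were 0.09 ± 0.07 for IL8, 0.06 ± 0.08 for CXCL1, 0.17 ± 0.07 for CXCL2 and 0.14 ± 0.08 for CXCL3. They were small but all on the positive side, where the 95th percentile of all MUT3 slopes was 0.067. The untreated MUT3 library was the lowest of the 5 for each of the 4 genes. Without it the slopes were 0.05, 0.00, 0.09 and 0.05. Between untreated and 1 ng/ml, at which RBM47 went only from 73.8 to 92.1, the counts of IL8, CXCL1 and CXCL2 in MUT3 increased by 1.38, 1.42 and 1.71 times, with counting intervals above 1.

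**Figure D2:**
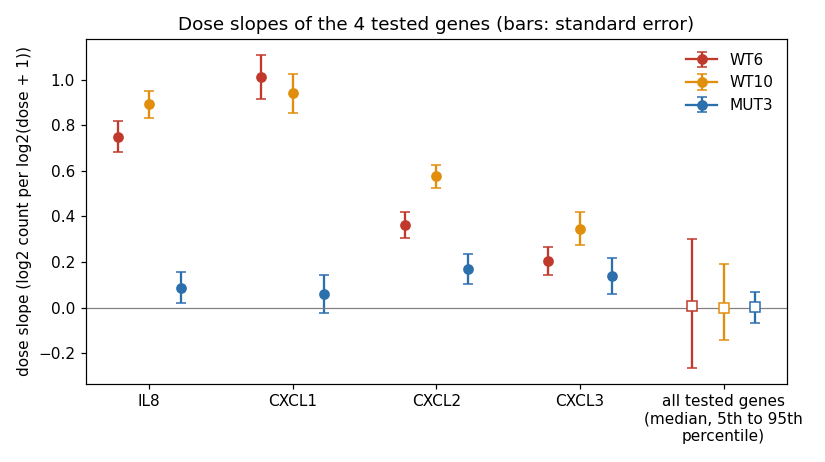
Dose slopes (log2 count per log2(dose + 1)) of IL8, CXCL1, CXCL2 and CXCL3 in WT6, WT10 and MUT3, with standard errors as bars, beside the median and the 5th to 95th percentile of all 12644 tested genes as open squares. IL8 and CXCL1 lie between 0.75 and 1.01 in the wild type clones and at 0.09 and 0.06 in MUT3.

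The wild type and mutant clones were set against each other by the mean wild type slope minus the MUT3 slope. These slopes are on dose, and at 1, 2.5 and 5 ng/ml MUT3 had less RBM47 mRNA than either wild type clone. The difference was 0.74 ± 0.08 (SE) for IL8, 0.92 ± 0.11 for CXCL1, 0.30 ± 0.08 for CXCL2 and 0.14 ± 0.09 for CXCL3. Of all tested genes 10.1% were called higher and 14.6% lower in the wild type clones. IL8, CXCL1 and CXCL2 were among the higher ones and CXCL3 was not, from which again nothing is read. Without the MUT3 library at 25 ng/ml 0 of the 4 genes were called, with differences of 0.74, 0.88 and 0.26 for IL8, CXCL1 and CXCL2. Without WT10 at 25 ng/ml CXCL2 lost its call as well, at 0.21. With length and GC trends removed, the CXCL2 difference was 0.20 ± 0.07, from slopes of 0.23 in WT6, 0.54 in WT10 and 0.18 in MUT3.

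The WT6 slope minus the WT10 slope was -0.14 ± 0.09 for IL8, 0.07 ± 0.13 for CXCL1, -0.21 ± 0.08 for CXCL2 and -0.14 ± 0.10 for CXCL3. None was called, against 14.4% of all tested genes called in either direction. CXCL2 was called without WT6 at 2.5 ng/ml (-0.23) or at 5 ng/ml (-0.22), and with length and GC trends removed (-0.32). These differences moved most without WT10 at 25 ng/ml, to -0.32 for IL8, 0.34 for CXCL1, -0.03 for CXCL2 and 0.01 for CXCL3, and then 0 were called.

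A fold of at least 2 at 25 ng/ml over untreated was reached by 9.77% of tested genes in WT6, 3.48% in WT10 and 0.514% in MUT3. Of the 4 chemokine genes, all 4 reached it in WT6 and in WT10, although CXCL3 in WT6 lay at the limit, with 2.02 and, scaled by the total reads on genes, 1.97. The median log2 change of its length class in that library was 0.58. CXCL2 alone did in MUT3.

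Leaving out the 25 ng/ml library changed the slopes in WT10 more than those in WT6. Without WT6 at 25 ng/ml, the slopes were 0.79 for IL8 and 1.09 for CXCL1, both called, and 0.31 for CXCL2 and 0.27 for CXCL3, which were not. CXCL3 also lost its call without the untreated WT6 library, at 0.18, and with WT6 fitted alone, at 0.21. Without WT10 at 25 ng/ml, the slopes were 1.07 for IL8, 0.68 for CXCL1, 0.39 for CXCL2 and 0.20 for CXCL3, and IL8 alone was called.

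In WT6 at 5 and 25 ng/ml, short transcripts as a class had shifted upward. With the genes split by length into 5 equal classes, the class of transcripts up to 1778 bases had a median log2 change from untreated of 0.60 and 0.58, and that of the longest transcripts -0.41 and -0.46. In WT10 and MUT3 the same medians lay within 0.08 of 0. The 4 chemokine mRNAs are between 1075 and 1642 bases long and belong to the shortest class. With length and GC trends removed from every library, the WT6 slopes were 0.72 for IL8, 0.90 for CXCL1, 0.23 for CXCL2 and 0.07 for CXCL3, and CXCL3 was no longer called. The WT10 slopes were then 0.83, 0.93, 0.54 and 0.31, all called. CXCL3 in WT6 thus had little slope apart from that of mRNAs of its length and GC content.

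Before any doxycycline, the clones already differed in these genes. IL8 in WT6 was 0.535 times its level in WT10 (0.429 to 0.665), while WT10 and MUT3 were not distinguishable (0.906, 0.754 to 1.09). CXCL1 was lowest in WT6, at 0.452 times WT10 (0.317 to 0.637), and WT10 in turn stood at 0.482 times MUT3 (0.379 to 0.610). CXCL3 went the other way, being 1.66-fold higher in WT6 than in WT10 (1.11 to 2.50). MUT3 therefore began with the most CXCL1 of the 3 clones, and it took 5 ng/ml for the others to draw level. At that dose the WT6 to MUT3 ratio was 1.06 (0.901 to 1.25) and the WT10 to MUT3 ratio 1.23 (1.09 to 1.40). At 25 ng/ml WT10 had 9.99 times the IL8 of MUT3 (9.02 to 11.1) and 5.31 times the CXCL1 (4.72 to 6.0), and WT6 had 3.22 and 3.08 times. The WT6 ratios at 5 and 25 ng/ml were not corrected for the shift of short transcripts. The median log2 change of that class was 0.60 and 0.58 in WT6, beside -0.04 and -0.01 in MUT3.

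Compared per kb of exon, so that genes of unlike length can be set side by side, the summed level of the 6 genes went from 181 to 1500 normalized counts per kb in WT6, from 274 to 3350 in WT10 and from 350 to 513 in MUT3. The makeup of that sum changed in the wild type clones. In untreated WT6 the 4 genes held 30.5% (IL8), 22.3% (CXCL1), 28.7% (CXCL2) and 18.3% (CXCL3). At 25 ng/ml CXCL1 held 51.1%, IL8 35.0%, CXCL2 9.41% and CXCL3 4.47%. In WT10 the shares of IL8 and CXCL1 went from 37.6% and 32.5% to 48.4% and 39.4%, with IL8 at 59.7% at 5 ng/ml. CXCL1 was the largest part of the MUT3 sum at every dose, 52.8% untreated and 48.4% at 25 ng/ml. With the canonical transcript's length in place of all exons, a choice made after seeing the data, IL8's share at 25 ng/ml was 40.7% in WT6 and 55.1% in WT10, and CXCL1 still led in WT6 with 43.8%. In MUT3, CXCL1 then held 45.5% untreated and 41.3% at 25 ng/ml, and IL8 38.0% and 36.7%.

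**Figure D3:**
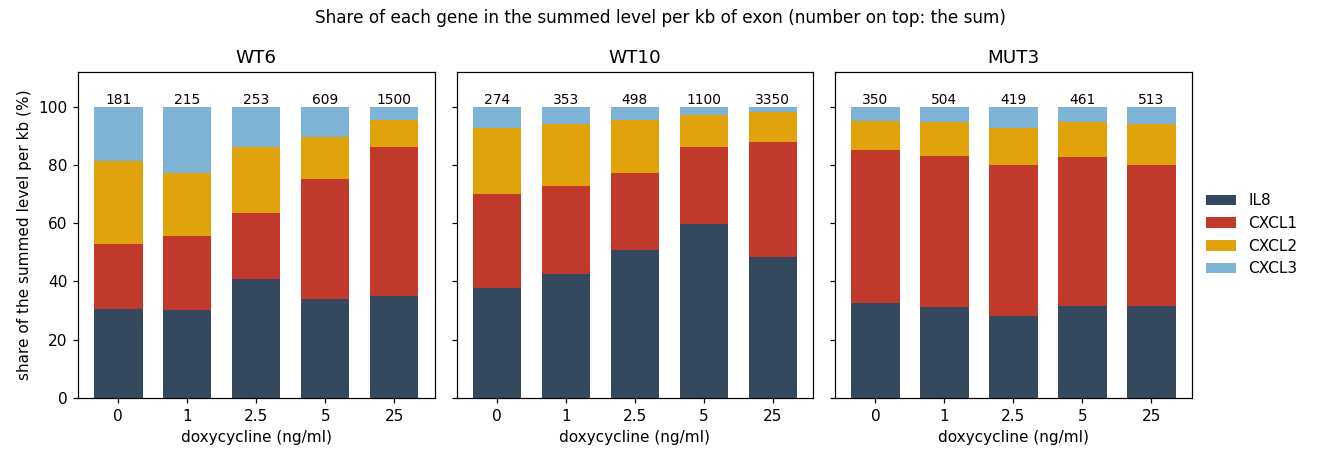
Share in percent of each gene in the summed level per kb of exon, stacked by doxycycline dose in ng/ml for WT6, WT10 and MUT3, 1 library per bar, with the sum in normalized counts per kb above the bar. CXCL2 and CXCL3 shrink from 28.7% and 18.3% to 9.41% and 4.47% in WT6, while the MUT3 bars keep CXCL1 as the largest part.

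On the same scale, IL8 went from 6455th to 426th of 12116 ranked genes in WT10 and from 8115th to 2174th in WT6. CXCL1 went from 6926th to 589th in WT10 and from 8802nd to 1517th in WT6. In MUT3, CXCL1 moved from 4571st to 3736th. A pair of genes of middling abundance thus came to lie in the top 5% of ranked genes in WT10.

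Over the 15 libraries, each centred on its clone, IL8 followed CXCL1 with a Pearson r of 0.961, CXCL2 with 0.940 and CXCL3 with 0.823. These are descriptions over libraries that share the same 3 dose series. CXCL1 was only 23rd in likeness to IL8 among 12643 genes, and RBM47 itself 2350th (r of 0.651). The genes most like IL8 outside the family were ALDH9A1 (0.978), ULBP2 (0.977), UBXN8 (0.976), SLC35F2 (0.976) and DKK1 (0.976), of which DKK1, a secreted Wnt antagonist, went from 7579 to 26822 normalized counts in WT10. CXCL2 was most like IFI44 (0.981) and SAA1 (0.974), an acute phase gene that went from 31.4 to 701 in WT10 and from 5254 to 36253 in WT6.

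The receptors of these chemokines were absent from the libraries at this depth. CXCR1 and CXCR2 had 0 reads in all 15, and the decoy receptor DARC had at most 1. Among the 11 other CXC chemokine genes, CXCL16, a transmembrane ligand of CXCR6, was the only one with enough reads to test. It rose in WT6 (0.32, limma adjusted p = 0.000589) and had a slope of 0.17 in WT10 (adjusted p = 0.0611), which was called with length and GC trends removed (0.18, adjusted p = 0.0274). The interferon-inducible CXCL9 and CXCL10 had at most 2 reads.

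Genes of the NF-κB pathway, the main inducer of this family, moved in part. The gene lists here and below were chosen with earlier results of these data known. Their counts and p-values are therefore a description. Of 20 listed genes 19 were tested, of which 9 rose and 3 fell in WT6, where 29.2% of all tested genes rose and 28.3% fell. In WT10, 10 rose and 0 fell, against 10.2% and 9.83% of all tested genes, and 0 were called in MUT3. With length and GC trends removed, 11 rose and 3 fell in WT6, beside 3541 and 3553 of all 12116 genes. In WT10, 12 then rose and 0 fell, beside 2016 and 2304 of all 12116 genes. The median slope of the list was 0.10 in WT6 and 0.09 in WT10, where all tested genes had medians of 0.01 and 0.00. The cytokine IL1A, which signals to NF-κB and is also induced by it, rose with slopes of 0.79 in WT6 (limma adjusted p = 3.51e-05) and 1.16 in WT10 (1.82e-06). IL1B rose by 0.43 (0.00242) and 0.86 (3.41e-06), and IRAK2, a kinase of the interleukin-1 receptor, by 0.27 (0.000962) and 0.28 (0.00165). RELB, an NF-κB subunit, rose by 0.35 in WT6 (3.14e-06) and 0.09 in WT10 (0.0314). The subunit NFKB2 rose in WT6 only (0.14, 0.00338). The 3 that fell in WT6 were the subunits NFKB1 (-0.09, 0.0253) and REL (-0.27, 0.0359), and IKBKG (-0.18, 0.0308). None of these 3 was called in WT10. With length and GC trends removed, IKBKG alone of them was called in WT6 (-0.27, 0.00796).

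The pathway's inhibitors did not move as a block. TNFAIP3, which encodes the A20 inhibitor, rose in WT10 (0.35, limma adjusted p = 6.11e-05) but had a slope of 0.01 in WT6 (0.756), and its slopes differed between the clones (adjusted p = 0.00636). NFKBIE rose in both clones, by 0.32 and 0.10. NFKBIA, the main inhibitor and a standard target gene, had slopes of -0.01 (0.711) and 0.07 (0.102), neither called, and RELA had 0.02 and -0.02. With length and GC trends removed, NFKBIA was called falling in WT6 (-0.13, limma adjusted p = 3.35e-05) and rising in WT10 (0.05, 0.0296). TNFAIP3 was then called rising in WT6 too (0.08, 0.00994). TNF had at most 4 reads. For the difference between wild type and MUT3 slopes, 5 of the list were higher and 1 (NFKB1, -0.11) lower, against 10.1% and 14.6% of all tested genes.

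**Figure D4:**
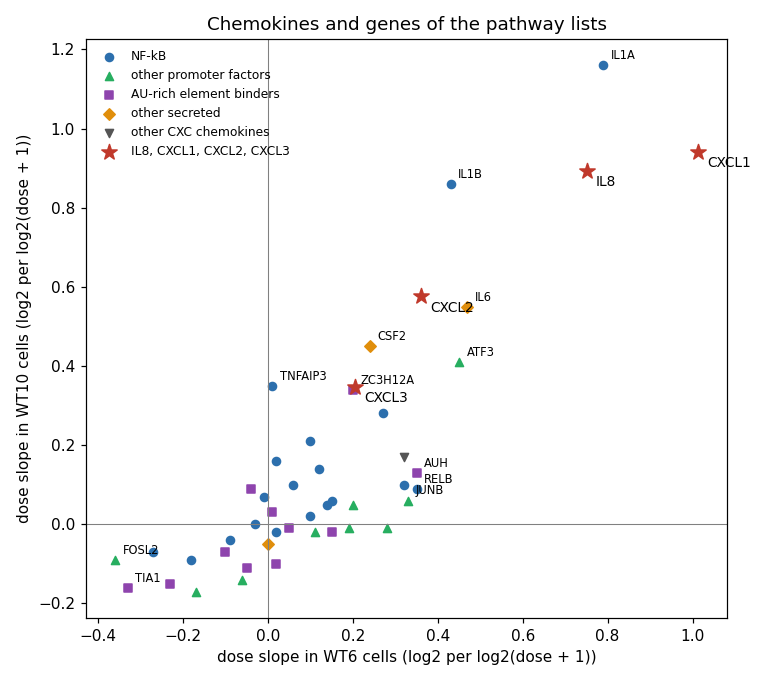
Dose slope in WT10 against dose slope in WT6 (both log2 count per log2(dose + 1)) for the 4 tested chemokine genes as stars and the tested genes of the pathway lists, 1 point per gene with shape and colour by list. IL1A lies beside IL8 and CXCL1 at 0.79 and 1.16, whereas most listed genes lie near 0.

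Among 9 other factors known to act on the IL8 promoter, 6 rose and 2 fell in WT6, and 1 rose and 2 fell in WT10. Of all tested genes, 29.2% rose and 28.3% fell in WT6, and 10.2% and 9.83% in WT10. Of the 9, 2 belong to the shortest length class, and with length and GC trends removed 5 rose and 3 fell in WT6 and 2 rose and 2 fell in WT10. ATF3, a stress-induced factor, rose in both (0.45 and 0.41, limma adjusted p = 0.000102 and 0.000931), and FOSL1, an AP-1 subunit, fell in both (-0.17 each, 0.000143 and 0.000829). JUNB (0.33) and CEBPB (0.20) rose in WT6, with slopes of 0.06 and 0.05 in WT10 that were not called. With those trends removed JUNB was called in WT10 too (0.06, limma adjusted p = 0.0124). The list's median slope was 0.19 in WT6 and -0.01 in WT10.

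Of 11 proteins that bind AU-rich elements or degrade such mRNAs, 4 rose and 3 fell in WT6, and 2 rose and 4 fell in WT10. The 7 called in WT6 stand beside 29.2% of all tested genes that rose there and 28.3% that fell. Their share in WT6 is thus near that of all genes. In WT10, 10.2% of all tested genes rose and 9.83% fell. With length and GC trends removed, 5 of the list rose and 2 fell in WT6, and 2 rose and 4 fell in WT10. Of all 12116 genes, 3541 then rose and 3553 fell in WT6, and 2016 and 2304 in WT10. ZC3H12A, the nuclease Regnase-1, rose in both clones (0.20 and 0.34, limma adjusted p = 0.000116 and 2.5e-05). KHSRP, a decay factor, fell (-0.23 and -0.15, 9.63e-06 and 0.00127), as did TIA1, a translational repressor (-0.33 and -0.16, 2.32e-05 and 0.0128). ELAVL1, the stabilising HuR protein, fell in WT6 (-0.10, 0.00265) and had a slope of -0.07 in WT10 (0.0608). ZFP36, or tristetraprolin, rose in WT6 (0.15, 0.00133), with -0.02 in WT10 (0.81). With length and GC trends removed, neither ELAVL1 (-0.01, 0.86) nor ZFP36 (0.04, 0.17) was called in WT6. None of the list was called in MUT3, where its median slope was 0.00.

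Other secreted factors that act on neutrophils were listed beside the family, and 3 of 7 were tested. IL6 rose in WT6 (0.47, limma adjusted p = 0.000215) and WT10 (0.55, 0.000801), and CSF2, the GM-CSF gene, by 0.24 (0.0397) and 0.45 (0.000462). CSF2 was not called in WT6 with length and GC trends removed (0.08, limma adjusted p = 0.426). LIF had slopes of 0.00 and -0.05, neither called. CSF3, the G-CSF gene that drives neutrophil production, was below the limit for testing in at least 1 clone, with 938 and 1516 normalized counts in WT6, 3.25 and 74.6 in WT10, and 5.00 and 6.29 in MUT3 at 0 and 25 ng/ml. CCL20 went from 355 to 1095 in WT6 and was likewise not tested. IL17A had 0 reads.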

How the data were processed

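Per the labels, polyadenylated RNA was made into TruSeq libraries and sequenced on an Illumina HiSeq as paired 75-base reads. Per the study's methods, these were aligned to hg19 with STAR and counted per gene with HTSeq. The authors deposited 1 table of read counts divided by DESeq size factors, a normalized signal; 100% of its values were whole reads after division by the step of each library (tolerance 0.001). HTSeq's tally rows were left out; 56.5 to 59.6% of tallied reads fell in no gene and 0.53 to 0.62% were ambiguous. A total of 0 columns lacked a sample.

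Slopes were fitted to log2(normalized count + 1) with limma 3.58.1 and precision weights, with an intercept and slope per clone (6 coefficients, 9 residual degrees of freedom), on 12644 genes with a mean of at least 10 in every clone. The spread comes from the scatter about 3 lines, not from replicates. The script was tested on simulated data. Alternatives were another pseudocount (4), no filter, no weights, and edgeR 4.0.16 on recovered reads. Ratios were also scaled by TMM factors or total reads on genes. Further runs fitted each clone alone, used the RBM47 count in place of dose, removed length and GC trends, or left out single libraries. Of the table's symbols 92.0% matched GENCODE. Ratio intervals are exact binomial. The named genes are the 6 members, RBM47, up to 4 genes of each list called in the same direction in both wild type clones with the steepest mean slope, and the 5 genes most like IL8. NFKB1, NFKB2, REL, IKBKG, TNFAIP3, NFKBIE, NFKBIA, RELA, JUNB, CEBPB, ELAVL1, ZFP36, IFI44 and SAA1 were named after their values were seen. Members and lists were chosen with earlier results of these data known.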

Additional observations from a re-analysis of the deposited data

Results flagged for a closer look

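The mean wild type dose slopes of IL8, CXCL1 and CXCL2 were higher than those of MUT3 by 0.74, 0.92 and 0.30 in an interaction contrast in limma. The CXCL2 slopes were 0.36 in WT6, 0.58 in WT10 and 0.17 in MUT3. With length and GC trends removed, they were 0.23, 0.54 and 0.18. These genes were chosen with the values known, so the differences are a description. The 3 clones differ in more than RBM47, and the part of clone origin in the difference cannot be told apart from that of the mutation. RBM47 mRNA at equal dose differed too, with 3966 normalized counts in WT6, 8134 in WT10 and 949 in MUT3 at 5 ng/ml. Its part cannot be told apart either.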

How the results depend on the processing

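No member's slope changed direction past the threshold under any alternative run. Of the 4 tested members, 4 were called in WT6, 4 in WT10, 3 for wild type minus MUT3 and 0 for WT6 minus WT10. With dose replaced by the log2 RBM47 count, centred within each clone, these became 0, 1, 0 and 0. That run fitted slopes on RBM47 mRNA and did not adjust the dose slope for RBM47. All genes called were then 1 in WT6, 88 in WT10, 0 for wild type minus MUT3 and 0 for WT6 minus WT10. The main fit had 7272, 2527, 3114 and 1817 in the same order. Without 25 ng/ml in every clone, 2, 1, 0 and 0 members and 4688, 17, 1 and 7 genes were called. With length and GC trends removed, 1 member (CXCL2) was called for WT6 minus WT10, and 4320 genes in WT10 and 6 in MUT3. Fitted alone, WT6 gave 3 members (CXCL3 lost its call) and 3945 genes, and MUT3 176, where the main count for MUT3 was 0. MUT3 had 14 genes without a filter, 1 without weights and 1 by edgeR. Leaving out single libraries gave 2 to 4 members in WT6, 1 to 4 in WT10, 0 to 3 for wild type minus MUT3 and 0 to 1 for WT6 minus WT10, and 4623 to 7891, 6 to 4142, 3 to 4914 and 59 to 3714 genes in the same order (0 to 4 in MUT3). The highest of these counts came without WT6 at 5 ng/ml, and the lowest without WT6 at 25, WT10 at 25, MUT3 at 25 and WT10 at 0 ng/ml. The runs without a library also held fewer libraries, and the cause of these changes was not tested. Depth limits CXCL5 and CXCL6 most, at 0 or 1 read.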
